A study of Mus musculus with 6 samples.

Results

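The genes described here are 35 that act in G2 and mitosis, from cyclin B and CDK1 to the kinetochore, the spindle and the machinery of chromosome separation. Members were chosen by gene symbol, and all 35 were found among the 30587 rows of the deposited count table. Of these, 34 had enough reads to be tested, among 13249 genes tested in all. The cells were dendritic cells grown from the bone marrow of C57BL/6 mice, in 2 genotypes with 3 libraries each. WT cells carried floxed Hif2a alleles (Hif2a fl/fl), and KO cells carried the same alleles together with CD11c-Cre (CD11c-Cre;Hif2a fl/fl), a transgene whose recombinase is made in cells that express CD11c. Cells of both genotypes were treated with dimethyloxalylglycine (DMOG), which stabilizes HIF α subunits, for 24 h and then with the glycolipid α-galactosylceramide (α-GalCer) for 4 h, so neither treatment is part of the comparison. The labels give no age, no untreated group and no group with CD11c-Cre alone, and they do not say whether the 3 libraries of a genotype came from separate mice or cultures. The p-values therefore rest on the spread among libraries, part of which may be technical.

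A cell enters mitosis when CDK1, bound to cyclin B, is switched on, and the Polo and Aurora kinases then drive centrosome maturation, chromosome condensation and spindle assembly. Kinetochores, built on centromeres that hold the histone variant CENP-A, attach chromosomes to microtubules, and the spindle checkpoint holds back the anaphase-promoting complex (APC/C) and its activator CDC20 until all are attached. Transcription of most of these genes peaks in G2 and M, through MuvB complexes with B-MYB and FOXM1 that bind the cell cycle genes homology region (CHR), and through NF-Y at CCAAT boxes. Dendritic cell cultures from bone marrow begin with dividing progenitors, and the mature cells divide little.

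The deposited libraries held 14668641 to 17884160 reads each. WT 2 had reads in more rows than any other library, 25408 against 18763 to 22275. The targeted gene, Hif2a, has the official symbol Epas1 (chr17:86753700-86833410, mm10, + strand) and encodes HIF-2α. Its counts were 339, 352 and 349 reads in WT 1, 2 and 3 and 175, 214 and 198 reads in KO 1, 2 and 3. The level fell 1.97-fold in KO, from 22.2 ± 1.94 to 11.2 ± 1.55 normalised reads per 1000000 (CPM; mean ± SD, n = 3), with an adjusted p of 3.45e-05 by edgeR. Among conventional dendritic cell markers, Itgax (the gene for CD11c), H2-Ab1, Cd74, Ccr7 and Irf8 were abundant in every library, whereas Cd209a reached at most 0.522 CPM. The macrophage markers Lyz2, Csf1r and Cd68 were abundant as well.

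Across the group, 19 of the 34 tested members rose in KO and none fell, at an adjusted p under 0.05 by edgeR's quasi-likelihood test with Benjamini-Hochberg adjustment over all genes tested. That is 55.9% of members, beside 13.8% of all genes tested that rose and 12% that fell (25.8% in either direction). Because the members were chosen with earlier results of these data known, the contrast is a description and not an independent test. All 34 had a positive log2 fold change, with a median of 0.61 and a range of 0.18 to 2.37, against a median of -0.01 over all genes tested. In 29 members each KO library lay above each WT library, 10 of them without a call, and in none did each KO library lie below. The background for such a separation was 20.5% of all genes tested for KO above WT and 20% for KO below. Over all genes, 1826 rose and 1586 fell; without KO 3 the counts were 1182 and 945, and without WT 1 they were 1336 and 1027. The low-count filter shaped 2 of the calls: Cenpf and Kif4 had fewer than 3 WT libraries at its level. Among the 32 members that met it in each WT library, 17 rose (53.1%), none fell, and the median log2 fold change was 0.59. With DESeq2's Wald test 18 members rose and with limma-voom 20, and no member fell with either.

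**Figure D1:**
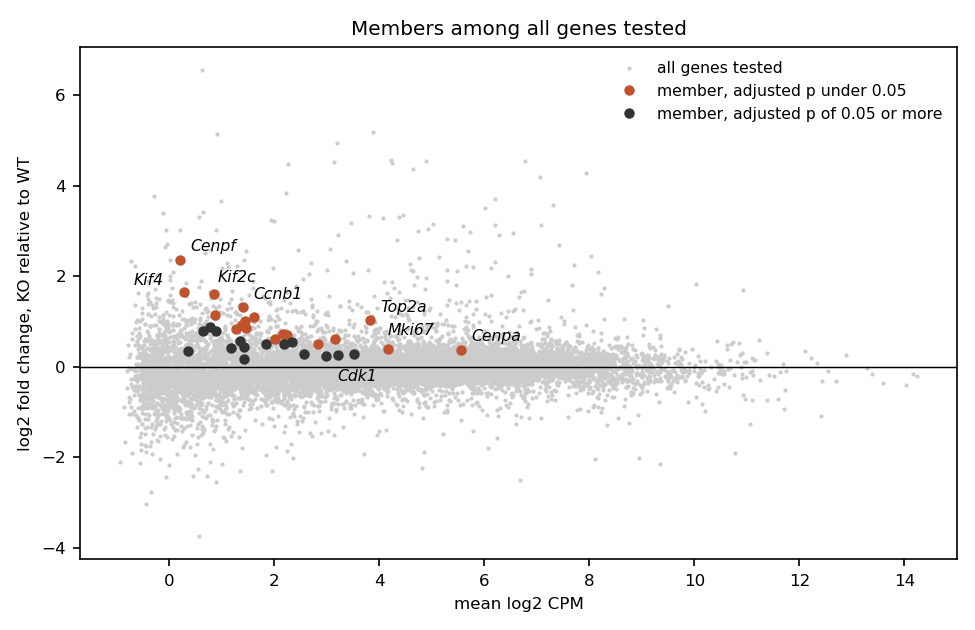
Log2 fold change of KO relative to WT against mean log2 CPM over the 6 libraries, for the 13249 genes tested (grey) and the 34 tested members (orange where the adjusted p was under 0.05, black where it was not). All members lie above the zero line, and the largest fold changes belong to members with a low level, such as Cenpf.

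Most of these transcripts were scarce. The tested members had 3 to 1046 reads per library, and 21 members stayed under 100 reads in every library. The level summed over the 35 members was 152, 165 and 160 CPM in WT 1, 2 and 3 and 221, 235 and 239 CPM in KO 1, 2 and 3. The KO sums all lay above the WT sums, with means of 232 ± 9.29 and 159 ± 6.08 CPM (SD, n = 3) and a ratio of 1.46. Cenpa alone made up 20.2% to 26.7% of the sum, and without it the ratio was 1.51. In bulk RNA, a larger share of dividing cells and more of these transcripts in each dividing cell cannot be told apart. Fold changes were larger in members with a low level: the median log2 fold change was 0.86 in the 17 members with the lowest mean level and 0.50 in the 17 with the highest, with 9 and 10 calls. The calls depended on single libraries more than the directions did, since all 34 log2 fold changes stayed positive with any 1 library left out, while the number of members called ran from 11 (without KO 2, and likewise without KO 3) to 20 (without KO 1). 9 members were called in each of the 15 alternative settings: Top2a, Ccnb1, Ube2c, Cenpf, Cenpa, Birc5, Kif2c, Kif4 and Kif11.

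**Figure D2:**
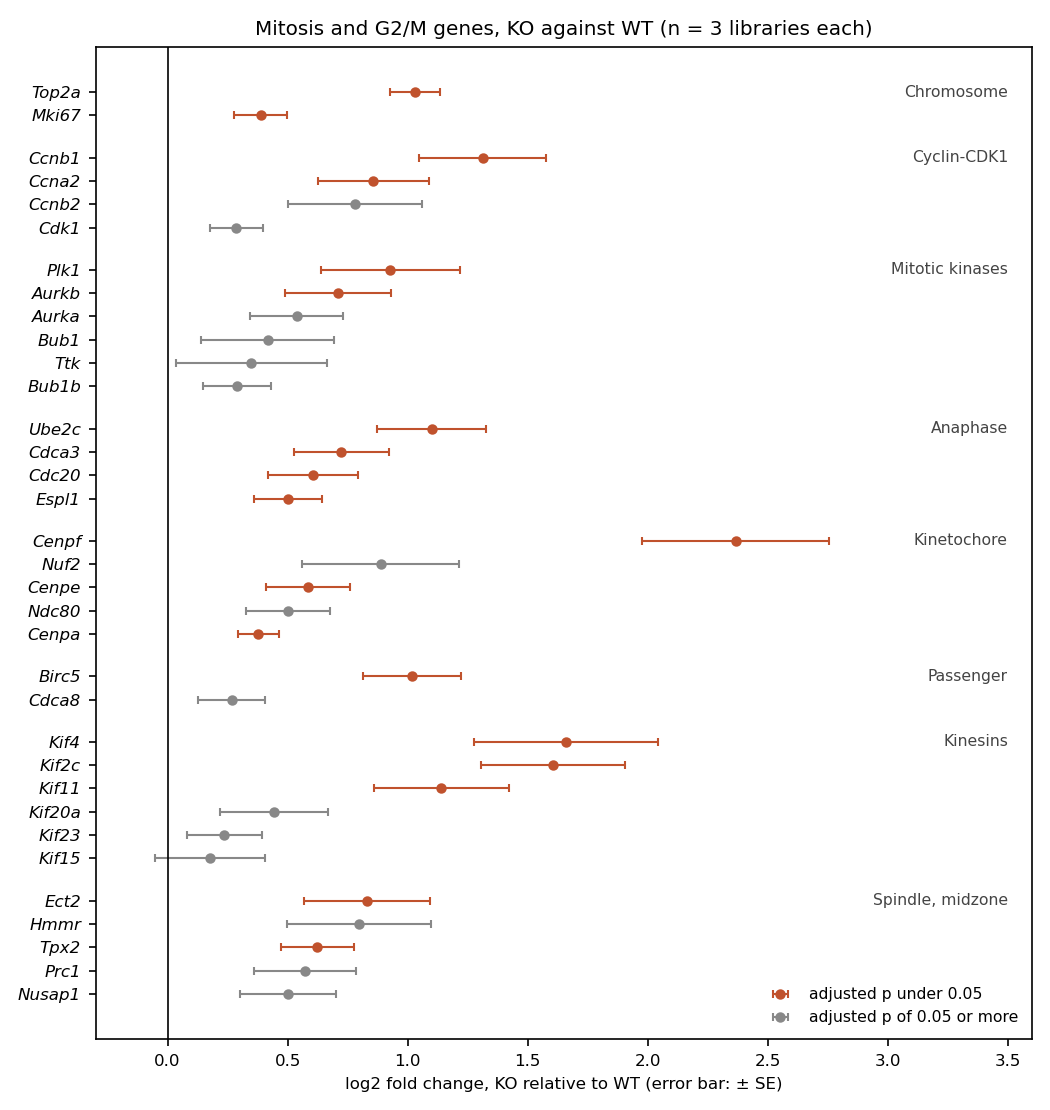
Log2 fold change of KO relative to WT (points) with its SE (bars) for the 34 tested members, in 8 role groups, from 3 libraries per genotype. Orange points passed an adjusted p of 0.05 and grey points did not; all points lie to the right of zero, from Kif15 at 0.18 to Cenpf at 2.37.

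Promoters were compared next, because the members moved together and are known for shared promoter elements. RefSeq promoters of build GRCm38.p6, from 250 bases before to 50 bases after the annotated start, were available for 30 of the 35 members and for 27025 symbols in all. The letters searched on both strands were TTTGAA or TTCGAA for the CHR, CCAAT for the CCAAT box, ACGTG or GCGTG for the core of a HIF site, and TTTCCCGC, TTTGGCGC, TTTCGCGC or TTTGCCGC for an E2F site. CHR letters were present in 25 of 30 member promoters (83.3%), beside 19.4% of all promoters and 13.9% of the promoters of tested genes. CCAAT was present in 24 of 30 (80.0%), beside 37.9% and 39.0%. Both were present in 22 of 30 (73.3%), beside 7.7% and 5.95%. E2F letters were present in 2 of 30 (6.67%), beside 2.32% and 4.18%, and HIF core letters in 22 of 30 (73.3%), beside 43.8% and 63.0%. By call, CHR letters were in 13 of 16 promoters of members that rose and in 12 of 14 of those not called or not tested. For CCAAT the counts were 14 of 16 and 10 of 14, and neither difference was tested.

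7 promoters are printed as the 250 bases before the start, 5′ to 3′ on the gene's strand, to show how the letters are laid out in members described below. Capitals mark CHR letters, which are TTTGAA or TTCGAA (read on the other strand, the first is TTCAAA), and CCAAT boxes (ATTGG on the other strand). Top2a lies at chr11:99024190-99024439 (− strand), Mki67 at chr7:135716380-135716629 (− strand), Cdk1 at chr10:69352913-69353162 (− strand) and Cdc20 at chr4:118437344-118437593 (− strand). Ube2c lies at chr2:164769679-164769928 (+ strand) and Kif11 at chr19:37376132-37376381 (+ strand). Ccnb1, at chr13:100786487-100786736 (− strand), is shown as a member with CCAAT and no CHR letters.
Top2a: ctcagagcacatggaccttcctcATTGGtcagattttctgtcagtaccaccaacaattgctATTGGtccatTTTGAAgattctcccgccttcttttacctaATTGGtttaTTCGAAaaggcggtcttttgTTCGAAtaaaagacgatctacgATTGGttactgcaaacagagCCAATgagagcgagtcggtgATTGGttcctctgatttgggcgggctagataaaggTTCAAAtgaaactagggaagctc
Mki67: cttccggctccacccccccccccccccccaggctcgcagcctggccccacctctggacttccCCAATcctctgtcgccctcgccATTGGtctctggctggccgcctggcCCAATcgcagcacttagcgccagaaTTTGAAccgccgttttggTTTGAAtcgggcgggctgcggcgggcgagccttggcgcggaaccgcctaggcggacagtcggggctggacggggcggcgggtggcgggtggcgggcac
Cdk1: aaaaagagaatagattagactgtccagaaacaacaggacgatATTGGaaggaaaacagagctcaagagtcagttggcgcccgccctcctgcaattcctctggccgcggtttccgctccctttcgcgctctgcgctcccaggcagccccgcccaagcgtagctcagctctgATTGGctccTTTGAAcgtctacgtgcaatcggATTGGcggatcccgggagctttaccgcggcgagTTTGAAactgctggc
Cdc20: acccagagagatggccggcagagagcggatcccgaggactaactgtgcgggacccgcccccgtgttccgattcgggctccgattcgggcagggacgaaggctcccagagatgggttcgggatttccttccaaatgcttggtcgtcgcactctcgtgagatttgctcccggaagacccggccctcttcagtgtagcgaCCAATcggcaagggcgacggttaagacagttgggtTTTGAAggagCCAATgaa
Ube2c: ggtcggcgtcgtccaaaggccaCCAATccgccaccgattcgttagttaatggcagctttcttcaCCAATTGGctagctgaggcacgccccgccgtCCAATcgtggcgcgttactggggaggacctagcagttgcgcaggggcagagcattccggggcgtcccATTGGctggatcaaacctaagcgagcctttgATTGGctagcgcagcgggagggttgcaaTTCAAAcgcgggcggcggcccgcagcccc
Kif11: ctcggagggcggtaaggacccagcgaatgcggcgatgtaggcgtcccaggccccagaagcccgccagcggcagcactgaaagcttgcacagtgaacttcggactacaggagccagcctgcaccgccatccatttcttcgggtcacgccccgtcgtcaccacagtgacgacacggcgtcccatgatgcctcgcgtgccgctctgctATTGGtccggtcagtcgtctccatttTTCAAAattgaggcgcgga
Ccnb1: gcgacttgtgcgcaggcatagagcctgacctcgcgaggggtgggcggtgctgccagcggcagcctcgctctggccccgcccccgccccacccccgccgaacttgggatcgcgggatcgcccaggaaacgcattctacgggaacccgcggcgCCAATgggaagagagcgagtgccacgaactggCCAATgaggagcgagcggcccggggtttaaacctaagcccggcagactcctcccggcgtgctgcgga

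The Top2a stretch holds 4 CHR matches and 6 CCAAT matches, and that of Ube2c 1 and 6. In Cdc20 and Kif11 the CHR letters lie within 30 bases of the start, with a CCAAT match upstream. Over the 30 promoters there were 34 CHR and 59 CCAAT matches, with 2 or more CCAAT matches in 17 members. The median distance between neighbouring CCAAT matches was 33 bases. CHR letters from 30 bases before the start to the end of the window were found in 23 of 30 members (76.7%), beside 4.1% of all promoters, a range chosen after the positions were seen. Birc5, Nuf2 and Nusap1 had neither set of letters in the window. 2 pairs of matches overlapped, 1 in Ube2c (visible above as a CCAAT running into ATTGG) and 1 in Cdca8. A match describes letters in the window and is not a bound site.

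**Figure D3:**
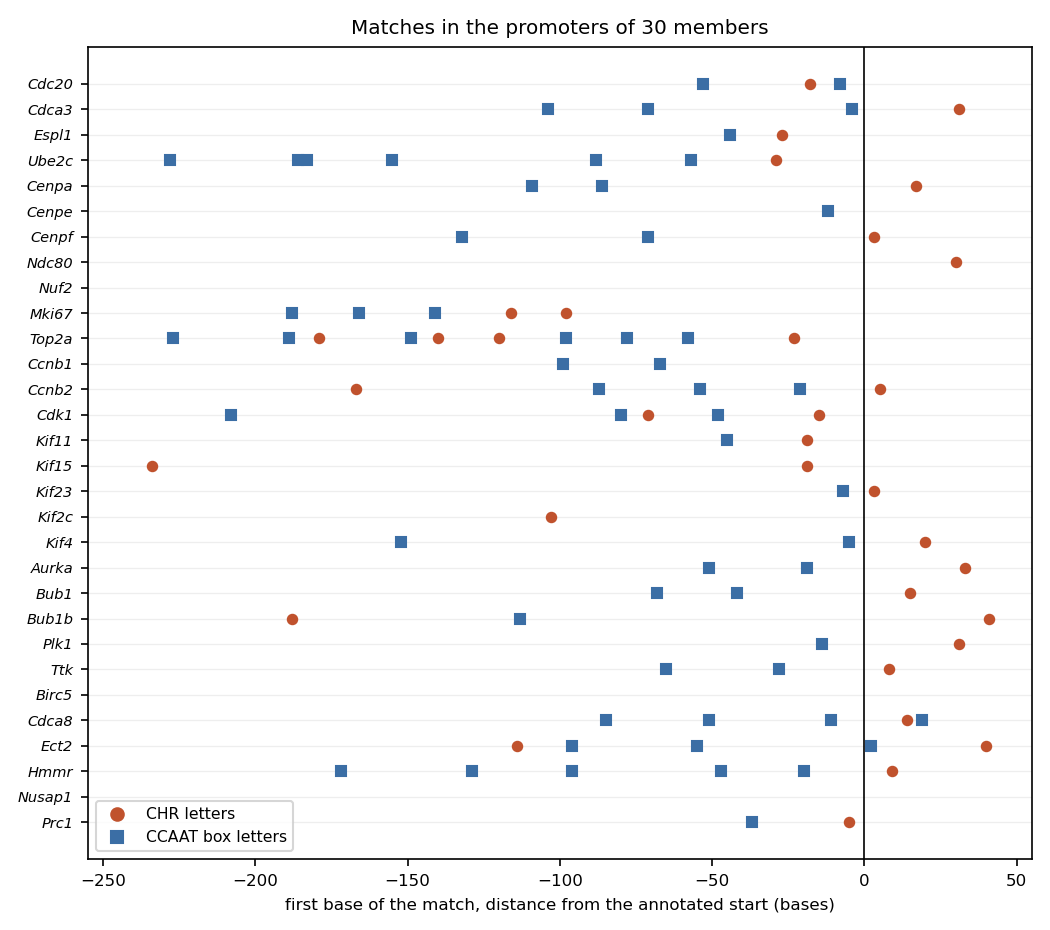
Position of the first base of each match to CHR letters (orange circles) and CCAAT letters (blue squares) in the promoters of 30 members, in bases from the annotated start at 0. CHR matches gather around the start and CCAAT matches upstream of it, at a median of -71.

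The genes of chromosome structure, Top2a and Mki67, both rose. Top2a (chr11:98992943-99024189, mm10, − strand) encodes topoisomerase IIα, which untangles and compacts chromosomes. Its level was 9.40, 8.74 and 9.27 CPM in WT 1, 2 and 3 and 16.9, 19.4 and 19.7 CPM in KO 1, 2 and 3. The 3 WT values lay close together, well below the lowest KO value. The log2 fold change was 1.03 ± 0.10 (SE), a 2.04-fold rise with an edgeR adjusted p of 8.57e-06, the lowest among members. Mki67 (chr7:135689784-135716361, − strand) encodes Ki-67, the coat protein of mitotic chromosomes that serves as the usual marker of dividing cells. Its level was 14.5, 14.9 and 16.8 CPM in WT and 17.8, 23.0 and 19.7 CPM in KO. The groups did not overlap, but KO 1 lay close above WT 3. The rise was 1.31-fold (log2 0.39 ± 0.11, edgeR adjusted p = 0.0209), and the call was lost without WT 1, WT 2, KO 2 or KO 3, at adjusted p of 0.0582 to 0.0844. A processed pseudogene, Gm44521, matches 216 bases of Mki67 at 98.6% identity. Per kilobase of exon, Top2a went from 1.01 to 2.07 CPM and Mki67 from 1.53 to 2.00 CPM, so the level of Top2a was below that of Mki67 in WT and close to it in KO.

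Of the cyclin and CDK1 group, Ccnb1 and Ccna2 rose and Ccnb2 and Cdk1 did not pass the test. Ccnb1 (chr13:100778650-100786570, − strand) encodes cyclin B1, the partner of CDK1 at mitotic entry. Its level was 2.01, 0.842 and 1.36 CPM in WT and 3.45, 3.55 and 3.60 CPM in KO. The KO libraries were nearly equal and the WT libraries scattered below them, with a 2.48-fold rise (log2 1.31 ± 0.27, edgeR adjusted p = 0.00273). Ccnb1 has processed pseudogenes of at least 97.3% identity, Ccnb1-ps, Gm12856 and Gm8416, so its reads could have been split between copies. The rows of Ccnb1-ps and Gm12856 held at most 3 reads in any library. Ccna2 (chr3:36564865-36572150, − strand) encodes cyclin A2, which acts in S phase and G2. It stood at 1.95, 1.88 and 1.70 CPM in WT and 2.58, 4.15 and 3.36 CPM in KO. All KO values were higher, with KO 1 nearest to WT, and the 1.81-fold rise (log2 0.86 ± 0.23, edgeR adjusted p = 0.0156) lost its call without KO 2 (0.0659) or KO 3 (0.052).

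Cdk1 (chr10:69335146-69352938, − strand), the kinase itself, stood at 10.2, 10.9 and 9.48 CPM in WT and 13.1, 12.7 and 11.5 CPM in KO. The groups did not overlap, yet the log2 fold change of 0.29 ± 0.11 had an edgeR adjusted p of 0.0751, and it passed in 1 of 15 alternatives, scaling to library size only (0.0471). Ccnb2, for cyclin B2, ranged over 0.946 to 1.10 CPM in WT and 1.53 to 2.09 CPM in KO, with a log2 fold change of 0.78 ± 0.28 and an edgeR adjusted p of 0.0552. Cdc25c, the phosphatase that activates CDK1, had only 5, 6 and 8 reads in WT and 12, 5 and 10 reads in KO and was not tested. Per kilobase of exon, Cdk1 was at 2.07 CPM in WT and 2.52 CPM in KO, against 0.333 and 0.838 CPM for Ccnb1.

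Among the 6 mitotic kinases, Plk1 and Aurkb rose and Aurka, Bub1, Bub1b and Ttk did not pass the test. Plk1 (chr7:122159439-122169873, + strand), Polo-like kinase 1, was at 1.30, 2.59 and 1.23 CPM in WT and 3.07, 2.67 and 4.00 CPM in KO. WT 2 came close to the lowest KO library, and the other WT libraries were well below. The 1.90-fold rise (log2 0.93 ± 0.29, edgeR adjusted p = 0.0311) lost its call without WT 1, WT 3 or KO 3, at adjusted p of 0.0956 to 0.148. Aurkb (chr11:69045647-69051664, + strand), the Aurora kinase of the chromosomal passenger complex, was at 4.44, 2.40 and 3.55 CPM in WT and 4.44, 6.57 and 6.09 CPM in KO. KO 1 and WT 1 had nearly the same value, and only KO 2 and KO 3 stood clear of WT. The 1.64-fold rise (log2 0.71 ± 0.22, edgeR adjusted p = 0.0318) lost its call without WT 2, WT 3, KO 2 or KO 3, at adjusted p of 0.0621 to 0.134.

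Aurka, the centrosomal Aurora kinase, ranged over 2.78 to 4.91 CPM in WT and 5.59 to 6.09 CPM in KO, without overlap. Its log2 fold change of 0.54 ± 0.19 had an edgeR adjusted p of 0.0583, and it passed in 5 of 15 alternatives, among them the fit without WT 3 (0.0288). The checkpoint kinases Bub1 and Ttk overlapped between genotypes, with log2 fold changes of 0.42 ± 0.28 and 0.35 ± 0.32 and edgeR adjusted p of 0.299 and 0.458. Bub1b, which encodes the checkpoint protein BUBR1, did not overlap and had a log2 fold change of 0.29 ± 0.14 (edgeR adjusted p = 0.162).

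All 4 genes grouped under anaphase and ubiquitin-dependent degradation rose: Ube2c, Cdca3, Cdc20 and Espl1. Ube2c (chr2:164769898-164778822, + strand) encodes the ubiquitin-conjugating enzyme of the APC/C. Its level was 1.54, 1.68 and 2.32 CPM in WT and 3.23, 4.09 and 4.52 CPM in KO. Every KO library was clear of WT, and the rise was 2.14-fold (log2 1.10 ± 0.23, edgeR adjusted p = 0.0031). The strand setting of the counting is not given in the sources used here, and 22.8% of the exon bases of Ube2c are shared with Tnnc2 on the other strand, whose reads might be counted in it. Cdca3 encodes a protein linked to degradation of WEE1, the kinase that inhibits CDK1, and its level was 3.08, 2.91 and 3.82 CPM in WT and 5.26, 6.63 and 4.29 CPM in KO. KO 3 was the KO library nearest to WT. The 1.65-fold rise (log2 0.72 ± 0.20, edgeR adjusted p = 0.0165) lost its call without WT 1, WT 2 or KO 2, at adjusted p of 0.0591 to 0.0714, and without WT 2 and KO 1 together (0.0632).

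Cdc20 (chr4:118432901-118437352, − strand), the APC/C activator held back by the checkpoint, was at 2.96, 3.63 and 2.73 CPM in WT and 4.00, 4.97 and 5.22 CPM in KO. The groups did not overlap, with KO 1 again nearest to WT. The 1.52-fold rise (log2 0.60 ± 0.19, edgeR adjusted p = 0.0295) lost its call without WT 1, WT 3, KO 2 or KO 3, at adjusted p of 0.0699 to 0.116, and with DESeq2's Wald test (0.0538). Espl1 encodes separase, the protease that cuts cohesin. It ranged over 4.92 to 6.33 CPM in WT and 7.67 to 8.59 CPM in KO, without overlap. The 1.42-fold rise (log2 0.50 ± 0.14, edgeR adjusted p = 0.0196) lost its call without WT 2, KO 2 or KO 3, at adjusted p of 0.0564 to 0.0872, and without WT 2 and KO 1 together (0.0768).

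Of the 5 centromere and kinetochore genes, Cenpf, Cenpa and Cenpe rose. Cenpf (chr1:189640606-189688086, − strand) encodes a large protein that joins the outer kinetochore in G2 and M. Its reads numbered 5, 4 and 6 in the WT libraries and 36, 31 and 21 in those of KO, which is 0.296, 0.259 and 0.409 CPM against 1.97, 1.84 and 1.22 CPM. The groups were widely separated, and the 5.16-fold rise (log2 2.37 ± 0.39, edgeR adjusted p = 0.000598) was the largest fitted for a member. No WT library reached the level the low-count filter asks for (0.591 CPM before TMM scaling), so Cenpf entered the test through the KO libraries alone and could enter only as a higher gene. Cenpa (chr5:30666777-30674830, + strand), the centromeric histone, was at 36.8, 43.1 and 42.8 CPM in WT and 57.3, 47.3 and 54.4 CPM in KO. KO 2 lay closest to WT, and the rise was 1.30-fold (log2 0.38 ± 0.09, edgeR adjusted p = 0.00583). Per kilobase of exon Cenpa had the highest level of the members, 6.98 CPM in WT and 9.05 CPM in KO, and Cenpf the lowest of those tested in WT, 0.0208 CPM, with 0.109 CPM in KO.

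Cenpe encodes the kinetochore motor that brings chromosomes to the spindle equator. It ranged over 3.37 to 4.14 CPM in WT and 4.93 to 6.51 CPM in KO, with a log2 fold change of 0.58 ± 0.17 (edgeR adjusted p = 0.0248). The call was lost without WT 1, WT 3 or KO 2, at adjusted p of 0.0567 to 0.0954. Ndc80 and Nuf2 encode partners in the complex that grips microtubules. Their KO values were above WT without overlap, with log2 fold changes of 0.50 ± 0.18 and 0.89 ± 0.33 and edgeR adjusted p of 0.0515 and 0.063. Ndc80 passed in 4 of 15 alternatives, among them the fit without WT 2 (0.0355).

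Of the passenger complex subunits apart from Aurkb, Birc5 rose and Cdca8 did not pass the test. Birc5 (chr11:117849251-117855743, + strand) encodes survivin. Its level was 1.66, 1.68 and 1.77 CPM in WT and 3.78, 3.32 and 3.25 CPM in KO. Both genotypes were tight, and the rise was 2.02-fold (log2 1.02 ± 0.20, edgeR adjusted p = 0.00256). Cdca8, for the subunit borealin, was at 8.52, 8.74 and 7.57 CPM in WT and 8.22, 11.0 and 10.7 CPM in KO. KO 1 fell among the WT libraries. The log2 fold change was 0.27 ± 0.14 (edgeR adjusted p = 0.183), and it passed without KO 1, at 0.39 with an adjusted p of 0.0406.

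Of the 6 kinesins, the motors that move along or take apart microtubules, Kif4, Kif2c and Kif11 rose and Kif20a, Kif23 and Kif15 did not pass the test. Kif2c (chr4:117159639-117182639, − strand) encodes MCAK, a kinesin that depolymerizes microtubules at kinetochores. It was at 0.946, 0.777 and 0.682 CPM in WT and 1.92, 3.14 and 2.38 CPM in KO. No KO library came near WT, and the rise was 3.05-fold (log2 1.61 ± 0.30, edgeR adjusted p = 0.00158). Kif4 (chrX:100625737-100727214, + strand), the chromosome-bound kinesin, had 11, 10 and 3 reads in WT and 33, 28 and 24 reads in KO. The levels were 0.651, 0.647 and 0.205 CPM against 1.81, 1.66 and 1.39 CPM, without overlap, and the rise was 3.16-fold (log2 1.66 ± 0.38, edgeR adjusted p = 0.00632). WT 3 was under the low-count filter, and Kif4 too needed KO libraries to pass it. Of its exon bases, 15.1% are shared with Pdzd11 on the other strand, whose own log2 fold change was 0.19 ± 0.10.

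Kif11 (chr19:37376403-37421859, + strand) encodes Eg5, which pushes spindle poles apart. It ranged over 0.828 to 1.17 CPM in WT and 1.86 to 2.78 CPM in KO, a 2.20-fold rise (log2 1.14 ± 0.28, edgeR adjusted p = 0.00953). The kinesins of the midzone and cytokinesis, Kif20a and Kif23, had log2 fold changes of 0.44 ± 0.22 and 0.24 ± 0.16, with edgeR adjusted p of 0.171 and 0.30. Kif15, which backs up Eg5, had the smallest log2 fold change of the members, 0.18 ± 0.23 (edgeR adjusted p = 0.621). Kif23 and Kif15 overlapped between genotypes, and Kif20a did not. Of the exon bases of Kif20a, 29.3% are shared with Cdc23 on the other strand.

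In the group of spindle and midzone proteins, Tpx2 and Ect2 rose. Tpx2 (chr2:152847964-152895321, + strand) encodes the activator of Aurora A on the spindle. It was at 7.51, 7.32 and 5.86 CPM in WT and 9.04, 10.4 and 12.6 CPM in KO. The genotypes did not overlap, and the 1.54-fold rise (log2 0.62 ± 0.15, edgeR adjusted p = 0.00889) lost its call without KO 3, at 0.49 with an adjusted p of 0.0587. Ect2, the exchange factor that activates RhoA for cytokinesis, was at 1.18, 1.75 and 1.98 CPM in WT and 2.19, 3.20 and 3.31 CPM in KO. KO 1 lay just above WT 3. The 1.78-fold rise (log2 0.83 ± 0.26, edgeR adjusted p = 0.0332) lost its call without WT 1, WT 2, KO 2 or KO 3, at adjusted p of 0.0712 to 0.132.

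The remaining spindle members had KO values above WT without overlap and no call. Nusap1, which bundles spindle microtubules, had a log2 fold change of 0.50 ± 0.20 (edgeR adjusted p = 0.0806), and it passed without WT 3 (0.0366). Prc1, which crosslinks midzone microtubules, had 0.57 ± 0.21 (edgeR adjusted p = 0.0636). Hmmr, a spindle assembly factor also known as a hyaluronan receptor, had 0.80 ± 0.30 (edgeR adjusted p = 0.0669), and it passed without WT 2 and KO 1 together (0.0356). By role, the ratio of summed CPM in KO to WT ran from 1.35 in the passenger subunits to 1.59 in the anaphase and ubiquitin group. That order rested on single abundant genes, such as Cdca8 with 82.9% of the WT passenger sum and Cenpa with 82.4% of the kinetochore sum. Without the most abundant gene of each group, the ratio ran from 1.54 in the mitotic kinases to 2.04 in the chromosome genes. It was then 2.02 in the passenger subunits and 1.71 in the anaphase and ubiquitin group. The passenger and chromosome groups held 1 gene each in that sum.

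**Figure D4:**
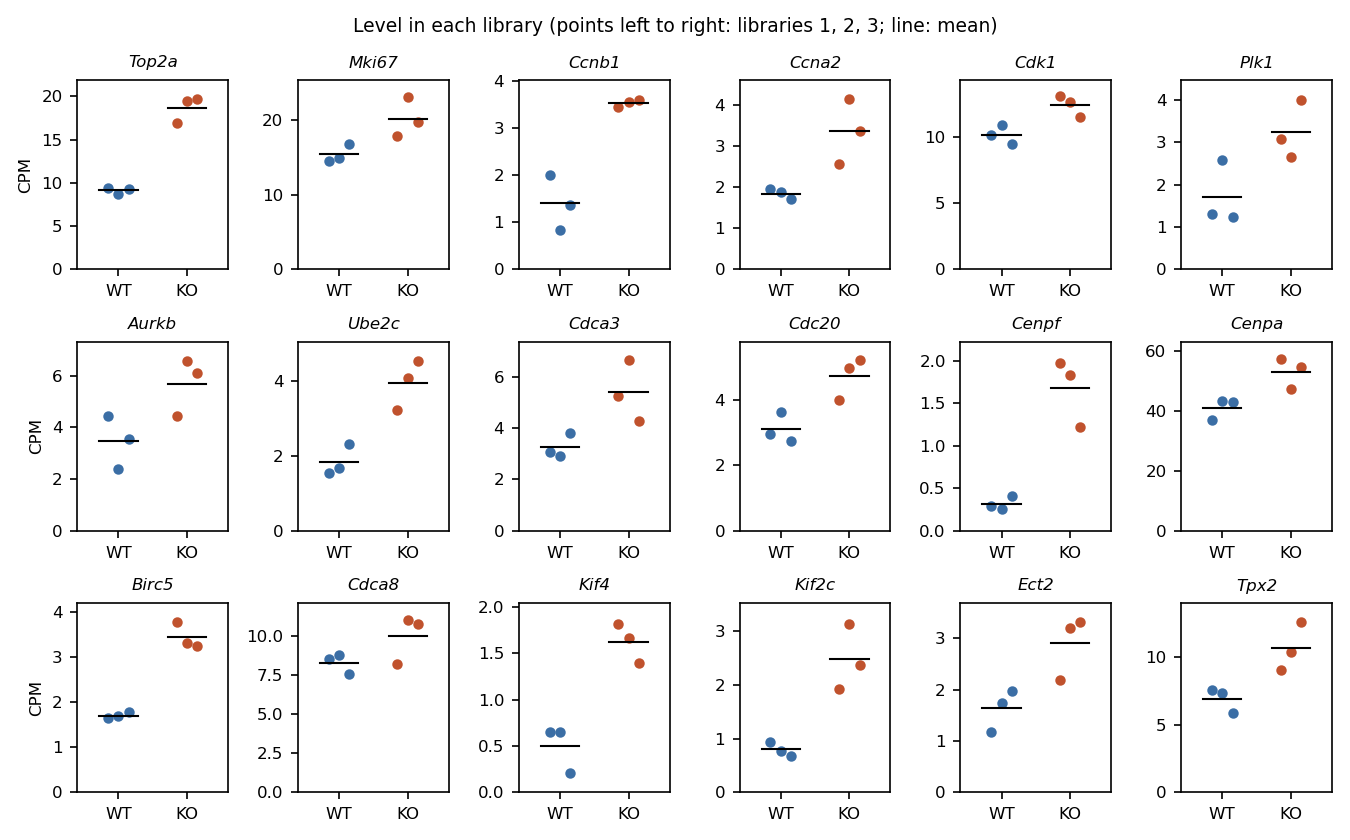
CPM of 18 members in each library, with WT in blue, KO in orange, libraries 1 to 3 from left to right in each genotype, and a line at the mean of 3 libraries. Each panel starts at 0; KO 1 sits nearest to WT in several panels, among them Mki67, Ccna2, Aurkb and Cdc20, and the groups overlap in Cdca8.

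Mitotic genes outside the 35 members were tested as a further list. Of 69 others listed, 64 were tested, 16 rose (25%), none fell, and the median log2 fold change was 0.30. Over all genes tested, 13.8% rose and 12% fell. Their summed level was 630 ± 8.28 CPM in WT and 693 ± 11.7 CPM in KO, a ratio of 1.10. Without KO 3, 10 of them rose. Cdc25b, the phosphatase that first activates CDK1 at the centrosome, went from 13.5 ± 0.186 to 22.4 ± 2.13 CPM (log2 0.73 ± 0.10, edgeR adjusted p = 0.000107). Pimreg, a mitotic regulator, rose 3.72-fold (edgeR adjusted p = 0.000624), the condensin subunit gene Ncapd2 1.55-fold (0.00128) and the kinesin gene Kif14 4.04-fold (0.00189). Kif14 passed the low-count filter through the KO libraries alone, with 5 to 6 reads in WT and 21 to 30 in KO, and Pimreg with 1 WT library and the 3 of KO. Kif18b and Knl1, also called higher, had fewer than 3 WT libraries at its level too. Of the 16 APC/C genes, which encode the machine that CDC20 and UBE2C serve, Anapc5 and Anapc1 rose, Anapc4 fell, and the median was -0.06. The log2 fold changes were 0.44 ± 0.06 (edgeR adjusted p = 0.000131), 0.24 ± 0.07 (0.0168) and -0.28 ± 0.07 (0.00846). In this list 12.5% rose and 6.25% fell, no more than the 13.8% and 12% of all genes tested. Anapc1 lost its call without WT 1, WT 2 or KO 2 (adjusted p of 0.0552 to 0.0759), and Anapc4 without KO 3 (0.0527) or without WT 2 and KO 1 together (0.06).

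Of 24 genes of the E2F, retinoblastoma, MuvB, MYB, NF-Y and FOXM1 machinery that controls these promoters, Foxm1, E2f7 and Rbl1 rose, E2f1 fell, and the median was 0.08. As shares, 12.5% rose and 4.17% fell, no more than the 13.8% and 12% of all genes tested. Foxm1, the forkhead activator of G2 and M genes, was at 1.12, 1.94 and 1.43 CPM in WT and 2.80, 3.26 and 3.83 CPM in KO. Every KO library was above WT, with a 2.20-fold rise (log2 1.14 ± 0.25, edgeR adjusted p = 0.00469) that was called in all 15 alternatives. Mybl2, for B-MYB, had a log2 fold change of 0.38 ± 0.21 (edgeR adjusted p = 0.202), and Lin54, the CHR-binding MuvB subunit, 0.08 ± 0.09 (0.539). E2f1, an activator at the start of S phase, went from 24.9 ± 0.0196 to 20.0 ± 2.02 CPM (log2 -0.32 ± 0.09, edgeR adjusted p = 0.0226). Its call was lost without any 1 of WT 1, WT 2, WT 3, KO 1 and KO 3 (adjusted p of 0.0547 to 0.0766) and without WT 2 and KO 1 together (0.12). E2f7, for a repressor, met the low-count filter in 1 WT library and all 3 of KO, and its rise (log2 1.48 ± 0.40, edgeR adjusted p = 0.0149) lost its call without WT 1, WT 2, KO 2 or KO 3 (0.0553 to 0.0729). Rbl1, for the pocket protein p107 (log2 0.30 ± 0.08, edgeR adjusted p = 0.0169), lost it without WT 1, KO 2 or KO 3 (0.0578 to 0.0769).

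Upstream of mitosis, 3 of 11 tested G1 cyclin and CDK genes rose (27.3%), none fell, and the median was 0.08. The shares over all genes tested were 13.8% higher and 12% lower. Ccnd2, for cyclin D2, went from 7.38 ± 0.504 to 21.9 ± 4.68 CPM, a 2.97-fold rise (log2 1.57 ± 0.15, edgeR adjusted p = 4.55e-06). Ccnd1 rose 1.82-fold (edgeR adjusted p = 0.000731) and Ccne1 1.75-fold (0.0026). Of 7 CDK inhibitor genes, Cdkn1a and Cdkn2c rose and Cdkn1b and Cdkn1c fell (28.6% in each direction). Cdkn1a, for p21, went from 508 ± 26.7 to 685 ± 23.6 CPM (log2 0.43 ± 0.06, edgeR adjusted p = 0.00018). The log2 fold change was 0.54 ± 0.12 for Cdkn2c (edgeR adjusted p = 0.00549), -0.30 ± 0.06 for Cdkn1b (0.00218) and -0.86 ± 0.20 for Cdkn1c (0.00665). Of 16 tested p53 target genes, Cdkn1a among them, 5 rose (31.25%) and 1 fell (6.25%), with a median of 0.06. Btg2 rose (log2 0.72 ± 0.07, edgeR adjusted p = 4.61e-06) and Sesn1 fell (-0.31 ± 0.07, 0.00597).

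Genes of S phase, which precedes G2, were counted the same way. Of 41 replication genes, 8 rose (19.5%), 1 fell (2.44%), and the median log2 fold change was 0.15, with 31 of 41 above 0. Of all genes tested, 13.8% rose and 12% fell. The summed level was 1070 ± 24.9 CPM in WT and 1054 ± 24.6 CPM in KO. Pcna made up 38.2% of the WT sum and 29.4% of the KO sum, and without it the other 40 genes summed to 661 ± 4.6 CPM in WT and 745 ± 8.96 CPM in KO, a ratio of 1.13. Rrm2, a subunit of ribonucleotide reductase, rose 2.01-fold (edgeR adjusted p = 0.00042), the ligase gene Lig1 1.53-fold (0.000225) and the licensing factor gene Cdt1 1.33-fold (0.00145). Pcna, the replication clamp, fell from 408 ± 21.2 to 309 ± 16.0 CPM (log2 -0.40 ± 0.07, edgeR adjusted p = 0.000761). CHR letters were in 6 of 33 S phase promoters (18.2%) and E2F letters in 12 of 33 (36.4%), beside 25 and 2 of 30 in the mitotic members. The difference between the lists was not tested.

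**Figure D5:**
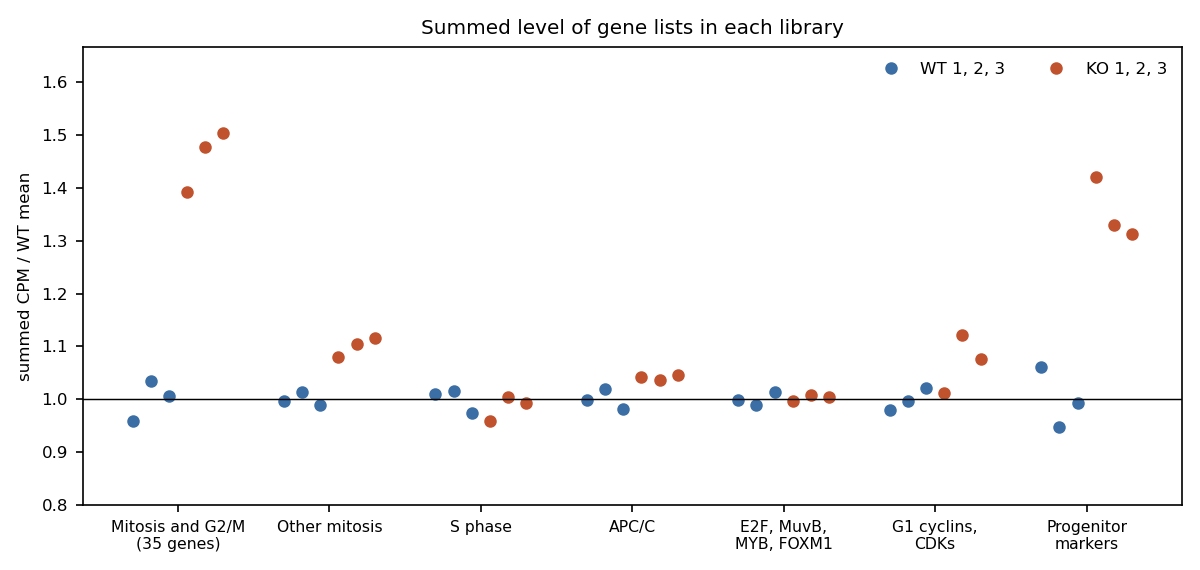
Summed CPM of 7 gene lists in each library, divided by the mean of the 3 WT libraries, with WT in blue and KO in orange. The 35 members reach a mean ratio of 1.46 in KO and the progenitor markers 1.35 (1.56 without Flt3). The S phase genes reach 0.99 with Pcna in the sum (1.13 without it), and the axis starts at 0.8.

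Of the marker lists of other cell types, those of stem and progenitor cells and of mast cells and basophils had higher sums in each KO library than in any WT library. No other marker list did so with all its genes summed. Among all genes tested, 13.8% rose and 12% fell. Of 8 stem and progenitor markers, 6 were tested, 4 rose (66.7%) and none fell, with summed levels of 114 to 127 CPM in WT and 158 to 171 CPM in KO. Flt3 made up 53% of the WT sum and 46% of the KO sum, and most of the rest came from Kit. Without Flt3 the ratio of KO to WT was 1.56. Kit, the receptor for stem cell factor, went from 48.8 ± 2.89 to 73.9 ± 2.95 CPM (log2 0.60 ± 0.06, edgeR adjusted p = 1.65e-05). Gata2 rose as well (log2 0.89 ± 0.18, edgeR adjusted p = 0.00285). Cd34 rose by 1.01 ± 0.26 (edgeR adjusted p = 0.0117), without a call when WT 1 was left out (0.0549). Flt3, also a dendritic cell gene, rose by 0.23 ± 0.06 (edgeR adjusted p = 0.018), without a call when WT 2 was left out (0.107), without WT 2 and KO 1 together (0.156) or with an offset for GC content and length (0.0574). Mecom, a stem cell gene, had no read in WT and Gata1 reached at most 0.174 CPM. Mast cell and basophil markers, which share Kit and Gata2 with that list, gave 4 higher and none lower of 5 tested out of 7, with sums of 50.2 to 57.5 CPM in WT and 81.9 to 89.0 CPM in KO. Kit made up 90.3% of that sum in WT and 87.1% in KO. Mcpt8 rose by 2.02 ± 0.41 (edgeR adjusted p = 0.00261) at 0.273 and 1.15 CPM on average, with 3 to 6 reads in WT and 19 to 21 in KO, so that it passed the low-count filter through KO alone. Cpa3, not called, passed it in the same way, and Fcer1a reached at most 0.0647 CPM. Prss34 rose by 1.02 ± 0.32 (edgeR adjusted p = 0.0316), a call lost without WT 2, WT 3, KO 1 or KO 3 (0.0955 to 0.106) and without WT 2 and KO 1 together (0.18). The part of these cells in the rise of the mitotic genes was not tested.

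Of 10 neutrophil precursor markers, 5 were tested and 2 rose (Ngp and Camp, 40%, beside 13.8% of all genes tested). Camp met the low-count filter in 1 WT library and all 3 of KO, so it needed KO libraries to pass. The sums of the 10 markers were 35.3 to 49.9 CPM in WT and 42.5 to 62.1 CPM in KO, which overlap. Mpo and Elane, which mark dividing granulocyte precursors, reached at most 0.439 and 0.118 CPM in a library. None of the 8 erythroid markers had enough reads for a test, and their sums were 0.414 to 0.712 CPM in WT and 0.711 to 1.10 CPM in KO. Of 9 lymphocyte markers 1 was tested, Cd79b, without a call (log2 0.41 ± 0.42, edgeR adjusted p = 0.522), with sums of 1.60 to 2.46 CPM in WT and 1.26 to 2.67 CPM in KO. Of 6 fibroblast markers 1 was tested, Pdgfra, which fell (log2 -1.17 ± 0.35, edgeR adjusted p = 0.0247), with sums of 2.11 to 6.62 CPM in WT and 1.36 to 1.80 CPM in KO. That call was lost without WT 1, KO 2 or KO 3 (0.0741 to 0.173). Macrophage and monocyte markers gave 4 higher and 1 lower of 9 (44.4% and 11.1%, beside 13.8% and 12% of all genes tested). Their sums were 21606 to 24163 CPM in WT and 18509 to 18668 CPM in KO. Lyz2 made up 83.5% of the WT sum and 77.2% of the KO sum, and without it the sums were 3603 to 3830 CPM in WT and 4037 to 4445 CPM in KO. Fcgr1 (log2 2.96), Ly6c2 (1.26) and Cd14 (1.04) rose and Lyz2 fell (-0.40). Dendritic cell markers gave 5 higher and 3 lower of 10 tested (50% and 30%, beside 13.8% and 12% of all genes tested). Xcr1, 1 of the 5 higher, met the low-count filter in 1 WT library and all 3 of KO, so it needed KO libraries to pass. The list summed to 6231 to 6390 CPM in WT and 5791 to 6493 CPM in KO. Cd74 made up 42.7% of the WT sum and 35.7% of the KO sum. Without it the sums were 3576 to 3684 CPM in WT and 3679 to 4217 CPM in KO, which overlap. Zbtb46 (0.50) and Ccr7 (0.55) rose and H2-Ab1 (-0.49) and Cd74 (-0.30) fell.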

How the data were processed

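RNA was sequenced from 6 libraries of bone-marrow-derived dendritic cells, 3 of each genotype, grouped by the labels. The authors deposited raw read counts per gene symbol. The submitters' processing notes name the build mm10, the aligners HISAT2, HISAT and TopHat2, and HTSeq, DESeq2 and SAMtools. Which of them made the table, their versions and the strand setting are unstated, and the annotation is not given in the sources used here. For 23 repeated symbols (47 rows), the row with the most reads was used under that name.

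Rows were filtered with filterByExpr (minimum count 10), scaled by TMM and compared by the quasi-likelihood test in edgeR 4.0.16 (R 4.3.3) with a genotype term and p-values adjusted over all 13249 rows tested. The tested rows hold at least 99.75% of the counts of each library. The SE is the size of the log2 fold change divided by the square root of F. CPM are reads per 1000000 of the TMM-scaled library, and levels per kilobase use exon length in GENCODE M21, which also gave the coordinates. Exon overlaps came from that annotation, and copies were alignments of at least 95% identity over 200 bases. Alternatives were other scalings and filters, the Wald test of DESeq2 1.42.0, voom of limma 3.58.1, a replicate block, each library left out, and, chosen after seeing the data, WT 2 and KO 1 left out together and an offset for GC content and length. Replicate numbers are not stated to pair the libraries. Same-numbered libraries correlated at 0.01, -0.11 and 0.08 in their deviations from the group means, which shows no shared effect but cannot tell how the libraries were prepared.

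The members and the other lists were chosen with earlier results of these data known. Values in every library are given for Mki67, Top2a, Ccnb1, Cdk1, Plk1, Aurkb, Cdc20 and the 2 members of lowest p in each of 8 role groups, and for Foxm1. Of each other list, up to 4 called genes of lowest p, or the 1 of lowest p where none was called, could be named, along with Epas1, Foxm1, Mybl2, E2f1, Lin54, Cdkn1a, Ccnd1 and Ccne1. Markers at or near 0, markers used to check the cell type, and genes named for needing KO libraries to pass the low-count filter were named after their values were seen. The fit was tested on simulated data, 3 tables of 13249 genes with 200 changed in each: 20.5% of the genes with a 1.25-fold change were found, 66.4% of those with 1.5-fold, 81.8% with 2-fold and 98% with 4-fold, and 10.3% of calls were false. The changed genes were drawn from all levels, whereas most members were scarce. In the real data 25.8% of genes were called, a far larger share, so these rates need not hold for the members.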

Additional observations from a re-analysis of the deposited data

How the results depend on the processing

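No member fell under any setting, and all member log2 fold changes kept their sign. Of 510 alternative values for members, 458 kept their side of the threshold, 34 lost the call (31 with a library left out) and 18 gained it. Members called higher numbered 20 with DESeq2 size factors, 23 with library size only, 22 without the low-count filter, 18 with the Wald test and 20 with voom. With the replicate number as a block they numbered 20, and genes called higher and lower 1741 and 1506, against 1826 and 1586. The replicate numbers are not stated to pair the libraries. Leaving out 1 library gave 1182 to 1992 genes higher and 945 to 1622 lower, and 11 to 20 members higher. It gave 10 to 17 other mitotic genes higher and 0 to 1 lower (1 without the filter), 1 to 2 APC/C genes higher and 0 to 1 lower, and 1 to 3 regulators of the E2F and FOXM1 list higher and 0 to 2 lower. G1 genes lower ran from 0 to 1, p53 targets lower from 1 to 2, macrophage markers lower from 1 to 2, and fibroblast markers lower from 0 to 3 (3 without the filter). APC/C genes lower numbered 0 without WT 2 and KO 1 and 2 with the GC and length offset. Regulators lower numbered 2 with the stricter count filter and 3 with the offset, and p53 targets lower 2 in either added setting. The log2 fold change of Cd79b ranged from -0.0022 (without KO 2) to 0.76 (without WT 1). The cause of these shifts was not tested. Of the 17 members of lowest level 9 were called, and of the 17 of highest level 10.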
